A study of Mus musculus with 6 samples.

Results

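Collagen genes encode the chains of the triple-helical proteins that make up most of the extracellular matrix, and 44 of them, of 19938 genes with a named probeset, were measured here in visceral fat of obese mice with and without heme oxygenase-1 (HO-1, gene Hmox1) in adipose precursors (APs). The members were all genes of the Col family (symbol Col, a type number, a and a chain number) whose probeset carried a single symbol. When a gene had several probesets, the probeset of highest average intensity was taken, which concerned 2 genes. Of the 44, 32 gave a log2 intensity above 7 on at least 3 of the 6 arrays and were tested, and 12 did not.

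Hmox1f/f PdgfraCre mice carry floxed Hmox1 together with Cre under control of the Pdgfra promoter, a promoter used by APs, whereas Hmox1f/f mice carry the floxed gene without Cre. According to the methods the animals were males on a C57BL/6J background, and both genotypes had been on a high-fat diet (HFD) for 8 weeks, begun at 6 weeks of age. Total RNA was hybridised to Affymetrix mouse gene arrays, with 3 Hmox1f/f PdgfraCre arrays (numbers 1 to 3) and 3 Hmox1f/f arrays (numbers 4 to 6), each a pool of 2 mice. The controls lack Cre, so an effect of Cre itself and one of Hmox1 deletion cannot be told apart, and the labels do not say whether the pools came from separate litters or days.

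Collagen chains are made in the endoplasmic reticulum, hydroxylated, folded as trimers and secreted, and most of them are then trimmed and cross-linked outside the cell. Fibrillar collagens (types I, III and V in most connective tissue) form the load-bearing fibres, collagen IV forms the sheet of the basement membrane around adipocytes and vessels, and beaded collagen VI forms microfilaments around fat cells. FACIT collagens (fibril-associated collagens with interrupted triple helices, such as types XII and XIV) sit on the surface of fibrils. In fat, fibroblast-like stromal cells including APs are the main makers of fibrillar collagen, and matrix that accumulates in obesity is called fibrosis. The study assayed collagen in the fat of obese mice of these genotypes, and the question here is whether collagen mRNA differed as well.

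The labels give the material as APs purified on beads and, elsewhere, as viWAT (visceral white adipose tissue, here perigonadal), and markers of several cell types were above the filter. Mean log2 intensities were 12.91 for Adipoq (adipocytes), 12.84 for Cd68 (macrophages) and 11.06 for Cdh5 (endothelium). Among markers of APs and fibroblasts they were 10.26 for Pdgfra and 13.13 for Dcn. Collagen values were therefore not assigned to a cell type. Median intensity lay between 106 and 115 on all 6 arrays. The markers of APs and fibroblasts had a summed intensity (over the 9 tested of 10 listed genes) from 14653 to 15897 on Hmox1f/f PdgfraCre arrays and from 14400 to 16095 on Hmox1f/f arrays. Dcn was the brightest of these 9 genes and weighs most in that sum. Adipocyte markers (9 tested of 10) summed to between 59317 and 63320 with Cre and to between 51540 and 57447 without, so the groups did not overlap. In such bulk RNA, fewer cells of a type and less RNA per cell cannot be told apart. Hmox1 had log2 intensities of 11.25, 11.36 and 10.74 on the Hmox1f/f PdgfraCre arrays and 11.90, 11.63 and 12.32 on the Hmox1f/f arrays (difference -0.83 ± 0.23 (SE), adjusted p = 0.266 by limma, the linear model fitted across all genes and adjusted over the 11024 tested), and Pdgfra had 10.24, 10.05 and 10.23 with Cre and 10.31, 10.36 and 10.34 without.

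Promoters are shown for the collagen IV pair, whose start regions overlap, and for a chain each of the fibre collagens I and III. Windows reach from 250 bases before the start of the gene to 50 bases after it and come from RefSeq (GRCm38.p6), where 35 of the 44 genes had at least 1 window (38 windows in all). Col4a1 and Col4a2, which encode the 2 chains of the widespread collagen IV trimer, lie head to head on chromosome 8. Their windows, at chr8:11312777-11313076 on the minus strand for Col4a1 and chr8:11312555-11312854 on the plus strand for Col4a2, share 78 bases, shown in capitals, each read on its own gene's strand.
Col4a1: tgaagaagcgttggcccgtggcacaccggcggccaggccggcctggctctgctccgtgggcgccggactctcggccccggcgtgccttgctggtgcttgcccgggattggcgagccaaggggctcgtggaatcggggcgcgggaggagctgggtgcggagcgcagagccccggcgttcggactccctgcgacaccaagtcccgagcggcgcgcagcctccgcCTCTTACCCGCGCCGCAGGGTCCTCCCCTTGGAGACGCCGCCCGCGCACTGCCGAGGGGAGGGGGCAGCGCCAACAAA
Col4a2: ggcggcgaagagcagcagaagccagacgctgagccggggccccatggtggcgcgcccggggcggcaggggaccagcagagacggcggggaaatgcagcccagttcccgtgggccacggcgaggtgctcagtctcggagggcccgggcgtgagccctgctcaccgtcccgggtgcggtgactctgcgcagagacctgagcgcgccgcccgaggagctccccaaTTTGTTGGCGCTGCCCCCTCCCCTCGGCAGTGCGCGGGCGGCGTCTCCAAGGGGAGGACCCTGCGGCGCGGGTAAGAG
The windows of Col1a2, a chain of collagen I, and of Col3a1, the only chain of collagen III, are on the plus strands of chromosomes 6 (chr6:4505368-4505667) and 1 (chr1:45311288-45311587). Capitals there mark, on either strand, the motif CCAAT (the box of that name), the TATA box searched as TATAAA, and the GC box searched as GGGCGG.
Col1a2: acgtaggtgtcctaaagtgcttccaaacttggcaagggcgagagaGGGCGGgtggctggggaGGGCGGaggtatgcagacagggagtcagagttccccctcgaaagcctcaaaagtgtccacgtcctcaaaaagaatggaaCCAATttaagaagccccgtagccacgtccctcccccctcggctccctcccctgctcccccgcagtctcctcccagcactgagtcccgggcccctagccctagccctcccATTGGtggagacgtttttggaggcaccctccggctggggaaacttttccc
Col3a1: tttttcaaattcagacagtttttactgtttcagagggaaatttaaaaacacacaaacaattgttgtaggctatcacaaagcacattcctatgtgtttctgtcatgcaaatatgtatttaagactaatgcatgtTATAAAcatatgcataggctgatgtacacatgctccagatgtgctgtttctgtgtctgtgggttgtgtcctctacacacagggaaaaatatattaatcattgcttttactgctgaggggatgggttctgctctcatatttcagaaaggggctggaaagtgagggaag
The Col1a2 window held 2 CCAAT boxes, 2 GC boxes and 0 TATA boxes, and the Col3a1 window held 1 TATA box and none of the other two. GC content was 61.0% for Col1a2 and 37.7% for Col3a1, with a median of 59.8% over the 38 collagen windows and of 52.7% over all 32851 windows. Over collagen windows the CCAAT box was found in 34.2%, the TATA box in 13.2% and the GC box in 60.5%, and over all windows in 37.4%, 13.6% and 35.7%. These matches are descriptions of the letters only.

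Collagen mRNA differed little between the genotypes. Of the 32 tested collagen genes, 0 passed an adjusted p of 0.05 by limma, as did 0% of all 11024 genes tested. At an unadjusted p under 0.05 by limma, 1 collagen gene was counted, Col14a1, which was lower with Cre, and none was higher. Over all genes tested, 15.8% had an unadjusted p under 0.05, 12.8% with a lower and 3.03% with a higher value in Hmox1f/f PdgfraCre. After a further quantile normalization the split over all genes was 927 lower and 671 higher, against 1406 and 334 without it. The values of the groups did not overlap for 3 collagen genes, with Col14a1 and Col3a1 lower and Col6a6 higher with Cre, whereas over all genes tested 21.2% did not overlap on the lower and 5.82% on the higher side. The median log2 difference of the 32 genes was 0.04, with 21 above and 11 below 0, and it was -0.03 over all genes tested. Differences of single collagen genes ran from -0.23 to 0.23, so that none reached a 1.2-fold change in its mean. Their standard errors ran from 0.07 to 0.28, and the 95% confidence interval lay within 0.5 of 0 for 29 of 32 genes and within 1 of 0 for all 32. With 1 array left out, the limma count of 1 became 0 (Hmox1f/f 4, where Col14a1 had an unadjusted p of 0.0613), 2 (Hmox1f/f PdgfraCre 2, with Col6a6 added) or 3 (Hmox1f/f 5, with Col3a1 and Col5a2 added). In limma Col6a6 then had an unadjusted p of 0.0495, Col3a1 of 0.0245 and Col5a2 of 0.0318.

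**Figure D1:**
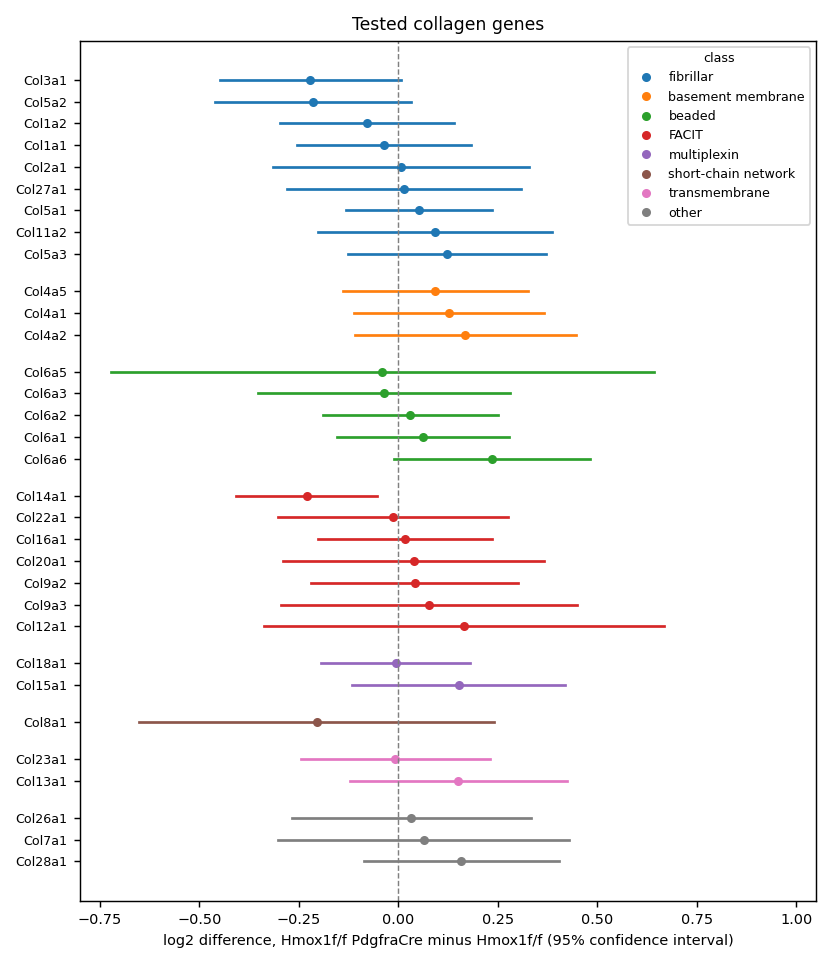
Log2 difference (horizontal axis, Hmox1f/f PdgfraCre minus Hmox1f/f) of the 32 tested collagen genes, coloured by class, with points for the limma estimate and lines for its 95% confidence interval (3 arrays per group). The interval of Col14a1 (-0.41 to -0.05) is the only one of the 32 that leaves out 0, and those of Col6a5, Col12a1 and Col8a1 are the only ones that reach beyond 0.5 on either side.

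Collagen I, the main fibre protein of connective tissue, was nearly level. Col1a1 had log2 intensities of 11.49, 11.48 and 11.54 on Hmox1f/f PdgfraCre arrays and 11.65, 11.38 and 11.60 on Hmox1f/f arrays. The values with Cre lay inside the range of the controls, and the difference was -0.04 ± 0.09 (SE, 95% confidence interval -0.25 to 0.18). Its partner chain Col1a2 gave 11.49, 11.46 and 11.57 with Cre and 11.71, 11.45 and 11.60 without (difference -0.08 ± 0.09, interval -0.30 to 0.14). Again all 3 values with Cre fell inside the control range, and Hmox1f/f 5 was the lowest control for both chains.

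Collagen III, which forms fine fibres together with collagen I, was lower with Cre in all 3 arrays. Col3a1 had 11.62, 11.79 and 11.76 on the Hmox1f/f PdgfraCre arrays and 12.01, 11.80 and 12.03 on the Hmox1f/f arrays. The gap between the nearest arrays, Hmox1f/f PdgfraCre 2 and Hmox1f/f 5, was under 0.01, and the difference of -0.22 ± 0.09 (SE) had an unadjusted p of 0.0551 and an adjusted p of 0.323 by limma. Without Hmox1f/f PdgfraCre 1 the difference was -0.17 and without Hmox1f/f 5 it was -0.29. Col5a2, the next protein-coding gene to Col3a1 on chromosome 1, encodes a chain of collagen V, which sits in the core of collagen I fibrils. It had 8.96, 9.18 and 9.08 with Cre and 9.37, 9.13 and 9.37 without, a difference of -0.21 ± 0.10 (SE, adjusted p = 0.351 by limma), and Hmox1f/f PdgfraCre 2 lay above Hmox1f/f 5. In both genes Hmox1f/f PdgfraCre 1 was the lowest of the 6 arrays and Hmox1f/f 5 the lowest control.

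The other chains of collagen V had small differences above 0. Col5a1 had 8.82, 8.84 and 8.94 on the Hmox1f/f PdgfraCre arrays and 8.89, 8.77 and 8.77 on the Hmox1f/f arrays (difference 0.05 ± 0.08, SE). For Col5a3 the values were 9.27, 9.36 and 9.55 with Cre and 9.40, 9.21 and 9.21 without (0.12 ± 0.10, SE). The groups overlapped for both, and neither had an unadjusted p under 0.05 by limma. Without Hmox1f/f PdgfraCre 3 the difference was 0.02 for Col5a1 and 0.04 for Col5a3. Of the 11 fibrillar genes 9 were tested, with a median difference of 0.01 (from -0.22 to 0.12). The remaining tested ones were Col2a1 (0.01), the main fibrillar collagen of cartilage, Col27a1 (0.01) and Col11a2 (0.09), all with a mean log2 intensity below 8. Whether the chains of collagen V differed from each other in their response was not tested.

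**Figure D2:**
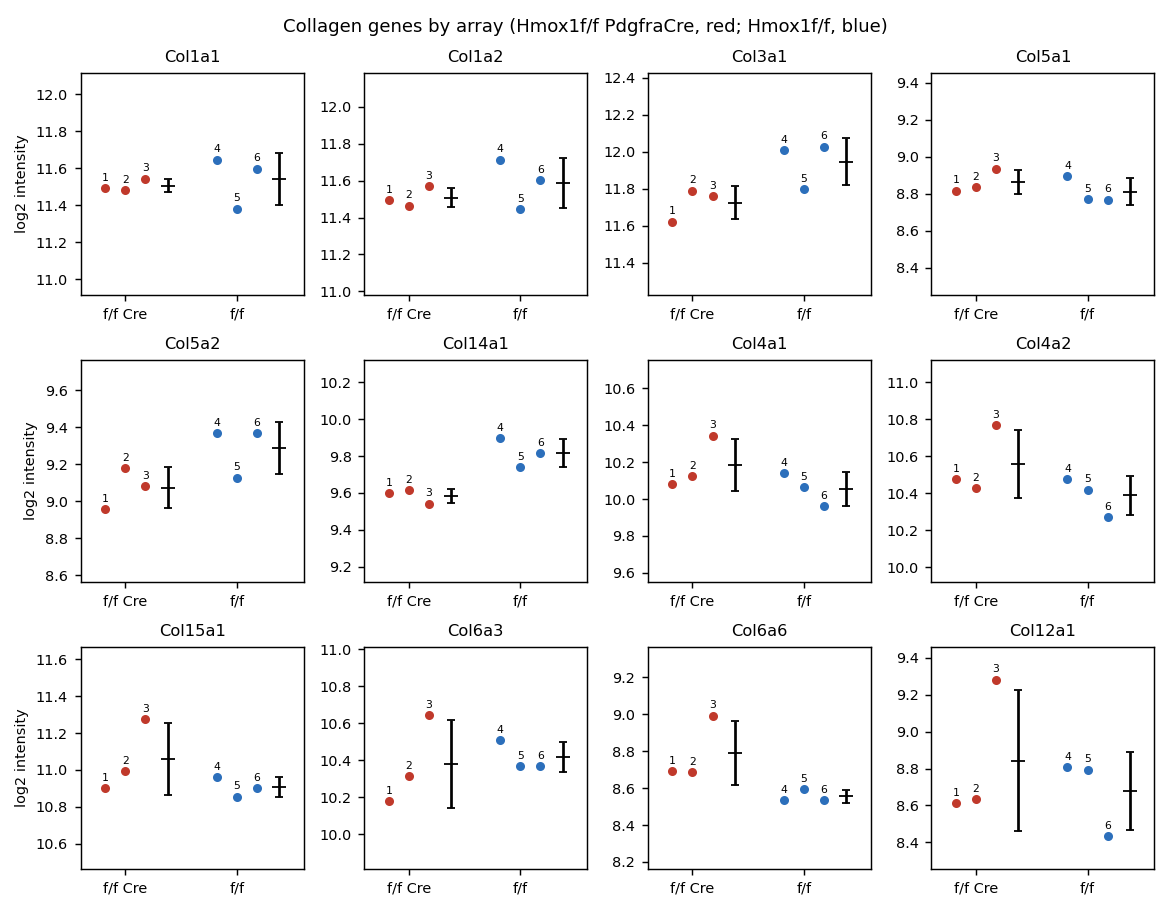
Each panel shows 1 of 12 collagen genes, with log2 intensity on the vertical axis (every panel spans 1.2 units) and numbered points for the Hmox1f/f PdgfraCre arrays (f/f Cre, red, left) and the Hmox1f/f arrays (f/f, blue, right). Black bars give the group mean with its SD (n = 3). The groups do not overlap for Col14a1, Col3a1 and Col6a6, and Hmox1f/f PdgfraCre 3 is the highest array for Col4a1, Col4a2, Col5a1, Col15a1, Col6a3, Col6a6 and Col12a1.

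Basement membrane collagen was slightly higher with Cre, within the spread of the arrays. Col4a1 had log2 intensities of 10.08, 10.12 and 10.34 on the Hmox1f/f PdgfraCre arrays and 10.14, 10.06 and 9.96 on the Hmox1f/f arrays (difference 0.13 ± 0.10, SE, interval -0.11 to 0.36). Col4a2, whose promoter window overlaps that of Col4a1, had 10.48, 10.43 and 10.77 with Cre and 10.48, 10.42 and 10.27 without (0.17 ± 0.11, interval -0.11 to 0.45). For both genes Hmox1f/f PdgfraCre 3 was the highest and Hmox1f/f 6 the lowest array, and the groups overlapped. Col4a5, a chain of the trimer found in kidney and other specialised membranes, had 7.37, 7.43 and 7.43 with Cre and 7.48, 7.29 and 7.17 without (0.09 ± 0.10). Without Hmox1f/f PdgfraCre 3 the difference was 0.05 for Col4a1 and 0.06 for Col4a2, and without Hmox1f/f 6 it was 0.02 for Col4a5. Col4a3, Col4a4 and Col4a6 did not pass the filter.

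Col15a1 and Col18a1 encode multiplexins, collagens of the basement membrane zone whose chains carry sugar side chains and release antiangiogenic fragments. Col15a1 had 10.90, 11.00 and 11.28 on the Hmox1f/f PdgfraCre arrays and 10.96, 10.86 and 10.90 on the Hmox1f/f arrays, a difference of 0.15 ± 0.11 (SE) that shrank to 0.04 when Hmox1f/f PdgfraCre 3 was left out, grew to 0.23 when number 1 was left out instead, and was 0.10 with arrayWeights (limma's down-weighting of variable arrays). Col18a1 had 8.85, 8.78 and 8.97 with Cre and 8.92, 8.83 and 8.87 without (-0.01 ± 0.08, interval -0.19 to 0.18). Hmox1f/f PdgfraCre 3 was the highest array for each, and the groups overlapped.

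Proteins that share the basement membrane with collagen IV had a median difference of 0.15 over 13 tested of 16 listed genes, 2 of which had an unadjusted p under 0.05 by limma and were higher with Cre, against 3.03% of all genes. Hspg2, which encodes the heparan sulfate proteoglycan perlecan, had 11.67, 11.52 and 11.93 on the Hmox1f/f PdgfraCre arrays and 11.44, 11.38 and 11.20 on the Hmox1f/f arrays (0.37 ± 0.13, SE, adjusted p = 0.273 by limma). Nid1, the nidogen that links laminin to collagen IV, had 12.22, 12.07 and 12.35 with Cre and 12.06, 11.98 and 11.88 without (0.24 ± 0.10, SE). The groups did not overlap for either gene, though Hmox1f/f PdgfraCre 2 was just above Hmox1f/f 4 for Nid1. Of the 13 tested genes, 4 did not overlap on the higher side, against 5.82% of all genes tested. Lama5, a laminin chain, differed by 0.34 ± 0.14 (SE), with 8.58, 8.30 and 8.67 with Cre and 8.31, 8.28 and 7.93 without, and an unadjusted p of 0.0515 by limma, and by 0.22 without Hmox1f/f 6. When arrays were left out in turn the count of 2 became 0 (Hmox1f/f PdgfraCre 1 or 3, Hmox1f/f 5 or 6), 1 (Hmox1f/f 4) or 4 (Hmox1f/f PdgfraCre 2). It was 4 after a further quantile normalization.

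Endothelial cells make much of the basement membrane of fat, and their markers differed in the same direction. All 10 endothelial markers were higher with Cre, 7 of them with an unadjusted p under 0.05 by limma, against 3.03% of all genes on the higher side, and all 10 were above a log2 intensity of 8 on every array. Their summed intensity lay between 9098 and 10535 on Hmox1f/f PdgfraCre arrays and between 6457 and 8261 on Hmox1f/f arrays. Hmox1f/f PdgfraCre 3 had the highest and Hmox1f/f 6 the lowest sum, the same arrays as for Col4a1 and Col4a2. The count of 7 markers was 4 without Hmox1f/f PdgfraCre 3 or Hmox1f/f 6, and 3 with Hmox1f/f PdgfraCre 1 and Hmox1f/f 6 both left out. Over all 11024 genes tested, 334 were counted as higher in the main fit. In these fits that number was 248, 145 and 90, in the same order. The part of endothelial RNA in the collagen IV values was not tested.

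Beaded collagen VI, made by stromal cells and adipocytes, was level in its 3 classical chains. Col6a1 had 11.16, 11.28 and 11.38 on the Hmox1f/f PdgfraCre arrays and 11.30, 11.22 and 11.12 on the Hmox1f/f arrays (0.06 ± 0.09, SE). Col6a2, its neighbour on chromosome 10, had 10.70, 10.91 and 10.92 with Cre and 10.89, 10.79 and 10.76 without (0.03 ± 0.09). Col6a3 had 10.18, 10.31 and 10.65 with Cre and 10.51, 10.37 and 10.37 without (-0.04 ± 0.13, interval -0.35 to 0.28). Hmox1f/f PdgfraCre 1 was the lowest and Hmox1f/f PdgfraCre 3 the highest array for Col6a3, so that the group with Cre spanned more than the controls.

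The later described chains of collagen VI lie next to each other on chromosome 9. Col6a6 had 8.69, 8.69 and 8.99 on the Hmox1f/f PdgfraCre arrays and 8.54, 8.60 and 8.54 on the Hmox1f/f arrays, with every Cre array above every control. The difference of 0.23 ± 0.10 (SE) had an unadjusted p of 0.0586 and an adjusted p of 0.327 by limma, and it was 0.13 without Hmox1f/f PdgfraCre 3. A second probeset of Col6a6 had a difference of 0.20, with 7.38, 7.26 and 8.01 with Cre and 7.36, 7.50 and 7.18 without, so there the groups overlapped.

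Col6a5 was the most variable member, with a 2.05-fold range over the 6 arrays. Its values were 9.85, 9.05 and 10.08 on the Hmox1f/f PdgfraCre arrays and 9.89, 9.81 and 9.41 on the Hmox1f/f arrays, a difference of -0.04 ± 0.28 (SE, interval -0.72 to 0.64). Hmox1f/f PdgfraCre 2 was the lowest array and Hmox1f/f 6 the next, and a second probeset was lowest on the same arrays (8.87 and 9.10, with 9.29 to 9.64 on the others). Smooth muscle myosin, Myh11, was low on the same arrays, with 9.20, 8.07 and 9.87 with Cre and 10.03, 9.37 and 7.93 without. The smooth muscle gene Cnn1 had 7.73, 6.48 and 8.50 with Cre and 9.54, 8.84 and 6.29 without. The mural markers Acta2 and Tagln were also lowest on both of these arrays. In contrast, Rgs5 (10.23), Abcc9 (9.12) and Kcnj8 (8.36) on Hmox1f/f PdgfraCre 2 lay above all controls. Cspg4, Notch3 and Des did not have both arrays as their lowest either. Over all 10 mural markers, which cover smooth muscle and pericytes, the summed intensity lay between 6952 and 9820 on Hmox1f/f PdgfraCre arrays and between 5468 and 9957 on Hmox1f/f arrays, with 2 genes higher and 1 lower at an unadjusted p under 0.05 by limma (1 in all without Hmox1f/f PdgfraCre 1), against 3.03% and 12.8% of all genes. The mural markers named here were chosen after their values were seen, and their part in the Col6a5 values was not tested. Of the 6 beaded genes 5 were tested, with a median difference of 0.03.

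Col14a1, a FACIT collagen on the surface of fibrils that marks many fibroblasts, gave the smallest p of the members. It had log2 intensities of 9.60, 9.61 and 9.54 on the Hmox1f/f PdgfraCre arrays and 9.89, 9.74 and 9.81 on the Hmox1f/f arrays. Every Cre array was below every control, and the SD within the group was 0.04 with Cre and 0.08 without. The difference was -0.23 ± 0.07 (SE, interval -0.41 to -0.05), a 1.17-fold lower signal, with an unadjusted p of 0.0182 and an adjusted p of 0.266 by limma, so it did not pass. It ranged from -0.19 (without Hmox1f/f 4) to -0.27 (without Hmox1f/f 5) when arrays were left out in turn. Over the 9 tested markers of APs and fibroblasts the median difference was 0.0039, a value that depended on the setting. ArrayWeights moved it to -0.17, and dropping Hmox1f/f PdgfraCre 3 moved it to -0.12. Omission of Hmox1f/f 6 gave -0.097, and omission of that array together with Hmox1f/f PdgfraCre 1 gave -0.14. A further quantile normalization gave 0.04. Of the 9 markers, 2 had an unadjusted p under 0.05 by limma (1 without Hmox1f/f PdgfraCre 1 or 3 or Hmox1f/f 4 or 6), both lower with Cre, against 12.8% of all genes. They were Thy1 and Pi16, and Pi16 passed the filter only through the 3 Hmox1f/f arrays, the group in which it was higher.

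Col12a1, a FACIT collagen related to type XIV, had 8.61, 8.63 and 9.28 on the Hmox1f/f PdgfraCre arrays and 8.81, 8.79 and 8.43 on the Hmox1f/f arrays. Its difference of 0.16 ± 0.21 (SE) rested on Hmox1f/f PdgfraCre 3, which was the highest array, and was -0.05 without it. Of the 9 FACIT genes 7 were tested, with a median of 0.04. Col9a3, a chain of the cartilage collagen IX, had 7.76, 8.06 and 7.56 with Cre and 7.92, 7.58 and 7.64 without (0.08 ± 0.15, SE). Col16a1, Col20a1, Col22a1 and Col9a2 differed by -0.01 to 0.04.

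Among members of other classes, Col8a1, a short-chain collagen of vessel walls, had 8.26, 8.59 and 8.29 on the Hmox1f/f PdgfraCre arrays and 8.95, 8.29 and 8.52 on the Hmox1f/f arrays. The difference of -0.21 ± 0.19 (SE) came with a 1.61-fold range over arrays, and Hmox1f/f 4 stood above all others. Leaving out Hmox1f/f 4 gave -0.02, leaving out Hmox1f/f 5 gave -0.35 and leaving out Hmox1f/f PdgfraCre 2 gave -0.31, and arrayWeights gave -0.08. Col13a1, a membrane-anchored collagen, had 7.43, 7.71 and 7.38 with Cre and 7.47, 7.34 and 7.26 without (0.15 ± 0.11, SE). Col28a1 had 7.15, 7.02 and 7.10 with Cre and 7.08, 6.97 and 6.75 without (0.16 ± 0.10, SE), and passed the filter through all 3 Cre arrays and 1 control. Without Hmox1f/f PdgfraCre 2 the Col13a1 difference was 0.05, and without Hmox1f/f 6 that of Col28a1 was 0.07. Col20a1 and Col22a1 likewise passed it on only 3 and 4 arrays. Col11a2 (7.34, 7.57 and 7.26 with Cre and 7.48, 7.22 and 7.19 without) and Col7a1, the anchoring fibril collagen of skin (7.71, 7.89 and 7.43 with Cre and 7.82, 7.60 and 7.43 without), overlapped between groups. Col26a1 (0.03) and the membrane-anchored Col23a1 (-0.0075) were level.

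The 12 genes below the filter had log2 intensities between 5.39 and 7.06 on all arrays. They were Col11a1, Col24a1, Col4a3, Col4a4, Col4a6, Col6a4, Col9a1, Col19a1, Col8a2, Col10a1, Col17a1 and Col25a1, among them collagens of cartilage (Col9a1, Col10a1, Col11a1), of epithelial anchoring (Col17a1) and of the kidney filter (Col4a3, Col4a4). In a fit without the filter none of the 12 had an unadjusted p under 0.05 by limma, and their differences lay between -0.07 and 0.24.

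Dimmer and brighter members followed different arrays. The 18 tested genes with a mean log2 intensity above 8 had mean deviations from their gene means of -0.08, -0.05 and 0.14 on Hmox1f/f PdgfraCre arrays and 0.10, -0.05 and -0.05 on Hmox1f/f arrays, and 12 of them were highest on Hmox1f/f PdgfraCre 3. For the 14 tested genes with a mean of 8 or below, the mean deviations were 0.05, 0.15 and -0.11 with Cre and 0.13, -0.10 and -0.12 without. None of these 14 was highest on Hmox1f/f PdgfraCre 3, and 6 were lowest there. The 12 untested genes gave 0.10, 0.10 and -0.12 with Cre and 0.13, -0.11 and -0.10 without, close to the dim tested ones. Over all 3142 tested genes with a mean of 8 or below the mean deviations stayed between -0.02 and 0.05. The boundary of 8 was set after the values were seen, and no test was made.

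**Figure D3:**
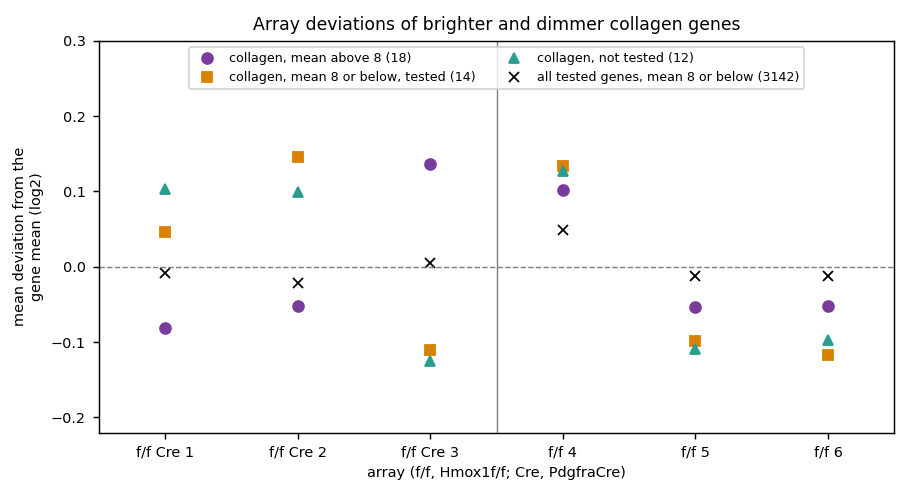
Mean deviation of log2 intensity from each gene's mean over 6 arrays (vertical axis) on Hmox1f/f PdgfraCre arrays 1 to 3 (left) and Hmox1f/f arrays 4 to 6 (right; f/f is short for Hmox1f/f), for 18 brighter and 14 dimmer tested collagen genes, 12 untested ones and all 3142 tested genes of the same dimness. On Hmox1f/f PdgfraCre 3 the brighter collagen genes lie at 0.14 and the dimmer tested ones at -0.11.

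Among 22 tested (29 listed) genes that modify and assemble collagen, 6 were lower and 1 was higher with Cre at an unadjusted p under 0.05 by limma, against 12.8% and 3.03% of all genes, and 0 passed the adjusted threshold. Their median difference was -0.14, with 17 below 0, where all genes tested had a median of -0.03 and 6327 of 11024 below 0. Pcolce, which enhances the trimming of procollagen, had 10.39, 10.61 and 10.41 on the Hmox1f/f PdgfraCre arrays and 10.88, 10.72 and 10.79 on the Hmox1f/f arrays (-0.33 ± 0.09, SE, adjusted p = 0.266 by limma). The lysyl hydroxylase Plod1 had 10.77, 10.87 and 10.71 with Cre and 11.07, 10.97 and 11.03 without (-0.24 ± 0.08), and the collagen galactosyltransferase Colgalt1 had 10.06, 10.25 and 9.95 with Cre and 10.33, 10.31 and 10.43 without (-0.27 ± 0.10). In these 3 genes every Cre array was below every control. Over the 22 genes, 9 did not overlap on the lower and 1 on the higher side, against 21.2% and 5.82% of all genes tested. The other genes lower at an unadjusted p under 0.05 by limma were Plod3, Loxl1 and Loxl3, and Pcolce2 was the higher one. When arrays were left out in turn the count of 7 became 2 (Hmox1f/f PdgfraCre 1 or Hmox1f/f 4), 3 (Hmox1f/f PdgfraCre 3, or Hmox1f/f 5 or 6) or 6 (Hmox1f/f PdgfraCre 2). It was 3 of 22 after a further quantile normalization or median centring, where the share over all genes was 14.5% and 13.8%. With Hmox1f/f PdgfraCre 1 and Hmox1f/f 6 both left out it was 0, and the share was 4.06%. The share over all genes, 15.8% in the main fit, was 9.42% and 11.0% where the count was 2. Where leaving out 1 array gave 3, the share was 8.72% to 13.2%, and where it gave 6, 19.1%.

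Among 10 tested (12 listed) genes that break down collagen or inhibit that breakdown, 7 had an unadjusted p under 0.05 by limma, all lower with Cre, against 12.8% of all genes, and the median was -0.26. The gelatinase Mmp2 had 10.38, 10.50 and 10.24 on the Hmox1f/f PdgfraCre arrays and 10.82, 10.71 and 10.98 on the Hmox1f/f arrays (-0.46 ± 0.11, SE), and the collagenase Mmp13 had 6.61, 7.15 and 6.93 with Cre and 7.57, 7.29 and 7.69 without (-0.62 ± 0.17). Mmp13 passed the filter through the 3 Hmox1f/f arrays and 1 Hmox1f/f PdgfraCre array, and 6 of the 7 genes counted remain without it. Timp1, an inhibitor of these enzymes, had 8.67, 9.28 and 8.80 with Cre and 9.73, 9.54 and 9.71 without (-0.74 ± 0.17). The groups did not overlap for any of the 3, and each had an adjusted p of 0.266 by limma. Of the 10 genes, 7 did not overlap on the lower side, against 21.2% of all genes tested. The other genes counted by p were the membrane-bound Mmp14 (-0.26), the inhibitor Timp2 (-0.25) and the lysosomal proteases Ctsk (-0.68) and Ctsl (-0.25). Of the other tested members, Mmp9 was at 0.02 and the inhibitors Timp3 and Timp4 were at 0.20 ± 0.12 and 0.49 ± 0.21 (SE), none with an unadjusted p under 0.05 by limma. The count of 7 by p was 4 without Hmox1f/f 6, where the share over all genes was 8.72%. With Hmox1f/f PdgfraCre 1 and Hmox1f/f 6 both left out that count was 2, and the share was 4.06%.

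Macrophages express many of these proteases, and all 12 macrophage markers were lower with Cre, 8 of them with an unadjusted p under 0.05 by limma, against 12.8% of all genes on the lower side. Their summed intensity lay between 29403 and 40033 on Hmox1f/f PdgfraCre arrays and between 44572 and 46629 on Hmox1f/f arrays. The count of 8 markers was between 7 and 10 with 1 array left out, and 2 with Hmox1f/f PdgfraCre 1 and Hmox1f/f 6 both left out. In the fit without both arrays 358 of 11024 genes were counted as lower, against 1406 in the main fit. Hmox1f/f PdgfraCre 2, the highest Cre array for the markers, was also the highest Cre array for Timp1, Mmp2, Mmp13, Timp2, Ctsk and Ctsl. Mmp14 was instead highest on Hmox1f/f PdgfraCre 1 (10.43, against 10.34 on Hmox1f/f PdgfraCre 2). The part of macrophage RNA in the protease values was not tested.

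**Figure D4:**
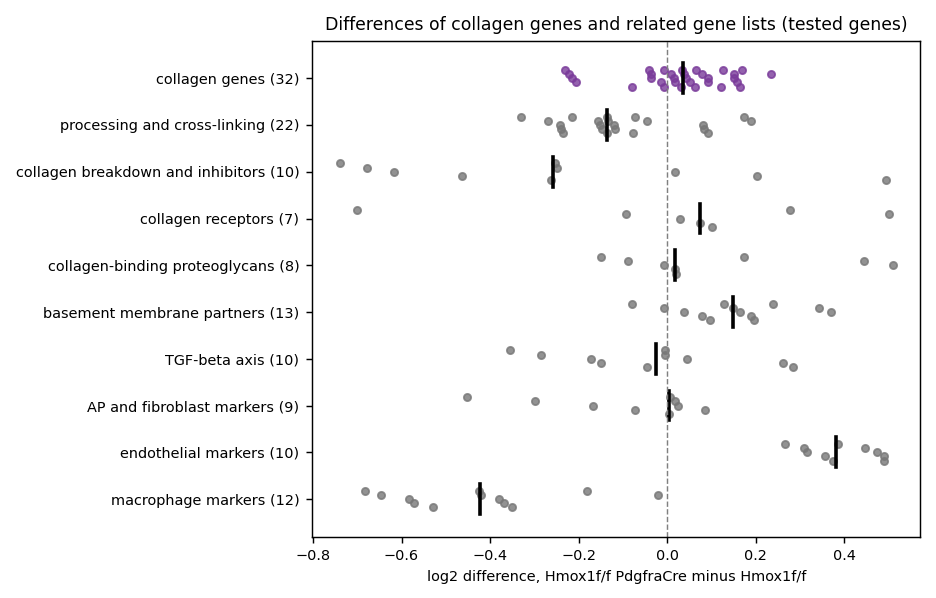
Log2 differences (horizontal axis, Hmox1f/f PdgfraCre minus Hmox1f/f) of the 32 tested collagen genes (purple) and of the tested members of 9 related lists (grey, number in brackets), with a black line at each median. Collagen genes lie between -0.23 and 0.23 with a median of 0.04, while genes of collagen breakdown have a median of -0.26, macrophage markers of -0.42 and endothelial markers of 0.38.

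Collagen receptors had differences in both directions. Of 7 tested (9 listed), 1 was lower and 2 were higher at an unadjusted p under 0.05 by limma, against 12.8% and 3.03% of all genes, with a median of 0.07. Lair1, an inhibitory collagen receptor of immune cells, had 8.41, 9.01 and 8.55 on the Hmox1f/f PdgfraCre arrays and 9.36, 9.47 and 9.25 on the Hmox1f/f arrays (-0.70 ± 0.16, SE). Itga1, the integrin chain that binds collagen IV, had 10.09, 9.98 and 10.41 with Cre and 9.83, 9.78 and 9.37 without (0.50 ± 0.17), and the collagen-activated kinase Ddr1 had 9.21, 8.94 and 9.10 with Cre and 8.78, 8.93 and 8.70 without (0.28 ± 0.10). For Lair1 the 3 Cre arrays were all below the controls, and for Itga1 and Ddr1 all above them, with Ddr1 separated by under 0.01. No other receptor of the 7 lacked overlap, and over all genes tested 21.2% did on the lower and 5.82% on the higher side. With 1 array left out the count of 3 was 1 (Hmox1f/f PdgfraCre 3 or Hmox1f/f 6), 2 (Hmox1f/f PdgfraCre 1 or Hmox1f/f 4) or 3 (the others).

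Of the 8 small proteoglycans that bind collagen fibrils, all tested, 1 had an unadjusted p under 0.05 by limma, against 15.8% of all genes, and the median was 0.02. That count became 0 whichever array was left out and after median centring. Prelp had 13.33, 13.31 and 13.39 on the Hmox1f/f PdgfraCre arrays and 13.20, 13.21 and 13.11 on the Hmox1f/f arrays (0.17 ± 0.07, SE). It was the only gene of the 8 without overlap, and 5.82% of all genes tested did not overlap on the higher side. Ogn and Aspn differed by 0.51 ± 0.30 and 0.44 ± 0.27 (SE). Hmox1f/f 6 was the lowest array for Ogn (9.35) and Aspn (8.84), whereas the other 5 arrays lay between 10.21 and 10.81 for Ogn and between 9.38 and 10.05 for Aspn. Without Hmox1f/f 6 the differences were 0.19 for Ogn and 0.18 for Aspn, and with arrayWeights 0.13 and 0.09.

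The TGF-beta axis is the main inducer of fibrillar collagen genes. Of its 10 tested genes (13 symbols listed), 1 had an unadjusted p under 0.05 by limma, against 15.8% of all genes. The median was -0.02, and it was 0.01 after a further quantile normalization, 0.0062 without Hmox1f/f 5, -0.11 without Hmox1f/f 6 and -0.07 without Hmox1f/f PdgfraCre 3. The gene under 0.05 was Tgfbi, a TGF-beta-induced matrix protein that binds collagen, with 10.69, 10.79 and 10.74 on the Hmox1f/f PdgfraCre arrays and 11.10, 11.08 and 11.10 on the Hmox1f/f arrays (-0.35 ± 0.07, SE, adjusted p = 0.266 by limma). All 3 Cre arrays were below the controls. Of the 10 tested genes, 2 did not overlap on the lower side, against 21.2% of all genes tested. The receptor Tgfbr2 had 10.62, 10.57 and 10.43 with Cre and 10.74, 10.64 and 10.69 without (-0.15 ± 0.08), and the ligand Tgfb1 had 11.10, 11.15 and 10.66 with Cre and 11.21, 11.09 and 11.47 without (-0.29 ± 0.16). Tgfb1 overlapped between the groups, and leaving out Hmox1f/f PdgfraCre 3 gave a difference of -0.13, leaving out Hmox1f/f 6 gave -0.18 and arrayWeights gave -0.09. The Tgfbr2 difference was -0.09 without Hmox1f/f PdgfraCre 3 and -0.08 with arrayWeights.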

How the data were processed

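RNA of 6 pools was measured on 1-colour Affymetrix mouse gene arrays. The authors deposited 1 linear intensity per probeset and array, as whole numbers between 8 and 20701. The submitters' processing notes name RMA (robust multi-array average: background correction, quantile normalization, a summary over probes) and Affymetrix Expression Console 1.1. With RMA, fold differences of dim probesets come out too small, and a shift common to most genes cannot be seen. The genome build is not given in the sources used here. Probesets were named by the platform annotation. Chromosomes, neighbouring genes and promoters come from RefSeq tables of GRCm38.p6, and no gene coordinates were taken from the files. Of 35556, 21789 had 1 gene symbol, 1621 several (0 with a collagen) and 12146 none here.

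Log2 of the deposited intensity was taken. Genotype was the only term of a linear model with empirical Bayes moderation over all 19938 genes (limma 3.58.1, R 4.3.3, two-sided). The 11024 genes above log2 7 on at least 3 arrays were then adjusted by Benjamini-Hochberg. P-values measure the spread between these pools, and 3 arrays per group limit precision. The model was tested on simulated data. Figures used matplotlib 3.10.9 in Python 3.11.15.

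The members and all gene lists were chosen with earlier results of these data known. Named were the tested chains of types I, III, IV, V, VI, XII, XIV, XV and XVIII, the 6 other collagens and the 3 genes of each further list with the smallest p, and Hmox1 and Pdgfra. Other genes named, and those given only by direction, were chosen after their values were seen. Symbols of the lists that matched no probeset with 1 symbol (11 of them) were not analysed here. Among them was Ctgf, the older symbol of Ccn2, which was listed too and was tested.

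The alternatives were to omit the filter or set it at 6, the filter of the methods (which adds a demand on variability), further quantile normalization, median centring, eBayes with trend and robust options, arrayWeights, averaged probesets, and fits without single arrays or without 1 array of each group. Moderation over the tested genes alone was added after seeing the data.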

Additional observations from a re-analysis of the deposited data

How the results depend on the processing

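Under every setting tried, 0 genes passed an adjusted p of 0.05 by limma. Where they were computed, the medians of the collagen genes and of the 4 main classes moved by less than the spread between replicates. The genes behind these medians changed with the filter. Omitting it left 44 collagen genes, a threshold of 6 left 42, and the added demand on variability left 5. With that demand the fibrillar and basement membrane classes had no median. The count of genes with an unadjusted p under 0.05 by limma (1740 of 11024, 15.8%) was 1117 of 3351 (33.3%) under the filter of the methods. It was 448 (4.06%) in the fit that left out both Hmox1f/f PdgfraCre 1 and Hmox1f/f 6, and between 961 (8.72%) and 2106 (19.1%) when 1 array was left out. The count of collagen genes (1) was 2 after further quantile normalization, with trend and robust moderation and with moderation over the tested genes. It was 0 under the filter of the methods and with both arrays left out, and between 0 and 3 with 1 array left out. The filter of the methods tests 5 collagen genes, and Col14a1 is not one of them. The causes of the other changes were not tested. No paired analysis was possible because the groups share no replicate number.

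Of 24 collagen genes named with array values, 16 kept their direction in every setting and 8 turned in at least 1. With arrayWeights, Col12a1 was at -0.060, Col1a1 at 0.038 and Col6a2 at -0.013. After further quantile normalization Col18a1 was at 0.032 and Col6a5 at 0.0044, and after median centring Col18a1 was at 0.011. With Hmox1f/f PdgfraCre 1 and Hmox1f/f 6 both left out, Col1a1 was at 5.5e-05, Col6a3 at 0.041 and Col7a1 at -0.048. When 1 array was left out, Col12a1 lay between -0.055 and 0.28, Col18a1 between -0.056 and 0.036, Col1a1 between -0.12 and 0.016, Col6a2 between -0.0090 and 0.10, Col6a3 between -0.17 and 0.064, Col6a5 between -0.25 and 0.27, Col9a3 between -0.054 and 0.19 and Col7a1 between -0.041 and 0.19.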

Other observations

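Further marker lists bear on what the arrays held. Mesothelial markers, from the cell layer that covers visceral fat and itself makes matrix, summed to between 2282 and 2580 on Hmox1f/f PdgfraCre arrays and to between 2340 and 2916 on Hmox1f/f arrays, and 1 of 7 tested (8 listed) was lower with Cre at an unadjusted p under 0.05 by limma, against 12.8% of all genes. That count was 0 without Hmox1f/f PdgfraCre 1 or 3 or Hmox1f/f 4 or 5, 2 without Hmox1f/f 6 and 3 without Hmox1f/f PdgfraCre 2. Among adipocyte markers 3 of 9 tested were higher with Cre at that threshold and none was lower, against 3.03% and 12.8% of all genes. Schwann cell markers were dim, with 2 of 8 tested and sums between 366 and 441 with Cre and between 401 and 430 without. Of 8 epididymal genes 1 passed the filter, Adam7, with log2 intensities of 11.68, 5.43 and 8.93 on the Hmox1f/f PdgfraCre arrays and 5.49, 5.52 and 7.85 on the Hmox1f/f arrays, so that arrays 1, 3 and 6 stood above the others. With the highest array of each group (1 and 6) left out and array 3 kept, the differences of Col14a1, Col3a1 and Col6a6 were -0.24, -0.13 and 0.27, with unadjusted p of 0.0723, 0.302 and 0.113 by limma.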
